A study of Arabidopsis thaliana with 12 samples.

Results

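Nitrate is the main nitrogen source that many roots take from the medium. Transporters of the NRT1 and NRT2 families carry it across the plasma membrane, nitrate reductase (NIA1 and NIA2) reduces it to nitrite, and nitrite reductase (NIR1) reduces nitrite to ammonium, which glutamine synthetase then builds into amino acids. NRT1.1 is a transporter that works at low and at high nitrate and also acts as a nitrate sensor, NRT2.1, NRT2.2 and NRT2.4 are high affinity transporters, and NRT3.1 is the partner protein that NRT2 transporters need at the membrane. NRT1.5 loads nitrate into the xylem for transport to the shoot. These 9 genes were chosen by name, with earlier results of these data known, and all 9 are among the 37336 genes of the count files.

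RNA was sequenced from Arabidopsis thaliana root explants of the L.er ecotype that carry 35S:LFY-GR, a fusion of the floral regulator LEAFY (LFY) with the steroid binding part of the glucocorticoid receptor. The steroid dexamethasone lets the fusion protein enter the nucleus. Roots of 3-week-old seedlings were kept on callus inducing medium for 5 days and were treated with dexamethasone or mock solution during the final 1, 6 or 24 h, with 2 biological replicates (A and B) in each of the 6 groups. All groups carry the transgene, which the 35S promoter drives in most tissues, and no explants without LFY-GR were analysed here, so that the effects of the steroid and of LFY-GR cannot be told apart. The labels do not say whether libraries of a time point were made together, so that time point and batch cannot be told apart either.

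Libraries held 18511462 to 66789371 reads on genes, and those of 24 h were the smallest, with at most 25879110. Reads that aligned to several places, which are in no gene count, made up 11.7% and 6.90% of the reads in the dexamethasone libraries A and B at 24 h, against 22.2% and 12.96% in mock. In the induction check of *AP1*, *RAX1* and *LFY*, the targets *AP1* and *RAX1* followed the labels at 24 h. *AP1*, a floral target of LFY, averaged 12.4 ± 3.66 CPM with dexamethasone and 0.101 ± 0.0781 CPM in mock (SD, n = 2 each), and *RAX1* averaged 18.1 ± 1.15 CPM with dexamethasone and 1.13 ± 0.545 CPM in mock. CPM is the count scaled to a common library size after normalization over the 12 libraries. Reads on *LFY* differed as well, with 858 ± 81.9 CPM with dexamethasone and 568 ± 39.4 CPM in mock at 24 h. The log2 fold change was 0.60 ± 0.06 (SE, adjusted *p* = 2.8e-10 in edgeR). In mock at 1 h *LFY* averaged 319 ± 41.4 CPM. Reads from the LFY part of the transgene can be counted on *LFY*, so that the transgene and the plant's own gene cannot be told apart. The root hair and endodermis markers *COBL9*, *EXP7* and *CASP1* were at 0.115, 0 and 0.0458 CPM in mock at 24 h, while *SCR* and *SHR*, which pattern the root ground tissue, were at 95.5 and 105 CPM. The summed level of the 7 root markers was 240 to 275 CPM with dexamethasone and 252 to 265 CPM in mock, nearly all of it from *SCR*, *SHR* and *WOL*. Of the 4 root markers tested, only *VND7*, a regulator of xylem vessels, was called, at 0.0215 CPM with dexamethasone and 0.931 CPM in mock (adjusted *p* = 0.00042). All 5 callus markers were present, 3 of them fell and 1 rose at 24 h, and their summed level was 392.0 to 392.2 CPM with dexamethasone at 24 h and 504 to 513 CPM in mock. The part of this difference in the results below was not tested, and in whole explants fewer cells of a type and less RNA per cell cannot be told apart. The summed level of the 5 green tissue markers was 49.1 to 49.6 CPM with dexamethasone and 40.0 to 48.3 CPM in mock at 24 h, with the regulator *GLK1* at 0 in all 4 libraries. Of the 4 green tissue markers tested, *RBCS1A* rose by 0.48 ± 0.12 and *CAB1* fell by 0.79 ± 0.20 on the log2 scale (adjusted *p* = 0.0035 and 0.0033).

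Where the genes lie bears on how well their reads can be told apart. In TAIR10.1, whose chromosomes were used for positions, *NRT2.1* (AT1G08090, chr1:2524023-2526322, plus strand) and *NRT2.2* (AT1G08100, chr1:2527170-2529120, minus strand) are neighbours, and their coding sequences were 89.4% identical. Of all windows of 50 exonic bases, 8.9% in *NRT2.1* and 11.1% in *NRT2.2* were found elsewhere in the genome, and none in the other 7 genes. *NIA1* (AT1G77760, chr1:29235721-29239484, minus strand) and *NIA2* (AT1G37130, chr1:14158452-14161938, plus strand) were 72.9% identical in coding sequence, without a shared window. *NIR1* (AT2G15620) lies at chr2:6810395-6812941, *NRT1.1* (AT1G12110) at chr1:4105223-4109601, *NRT1.5* (AT1G32450) at chr1:11715147-11719988, *NRT2.4* (AT5G60770) at chr5:24444365-24447127 and *NRT3.1* (AT5G50200) at chr5:20436180-20437815. Exons of *NRT1.5* overlapped another gene over 0.7% of their length, and those of the other 8 genes did not overlap one.

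The upstream sequences of the nitrate reductase genes, which were lower at 24 h, and of *NRT3.1*, which was higher, are shown because these 3 genes had the largest fold changes among those called. Each run is the 250 bases before the annotated start in RefSeq's TAIR10.1, on the strand of the gene, and capitals would mark a match of a searched motif. Whether the L.er explants have the same bases here was not tested.
NIA1 (chr1:29239485-29239734, minus strand): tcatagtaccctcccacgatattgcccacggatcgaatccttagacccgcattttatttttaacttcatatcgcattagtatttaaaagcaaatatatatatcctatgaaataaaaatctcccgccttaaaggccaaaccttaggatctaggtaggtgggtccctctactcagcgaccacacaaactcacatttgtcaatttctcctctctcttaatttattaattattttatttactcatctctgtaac
NIA2 (chr1:14158202-14158451, plus strand): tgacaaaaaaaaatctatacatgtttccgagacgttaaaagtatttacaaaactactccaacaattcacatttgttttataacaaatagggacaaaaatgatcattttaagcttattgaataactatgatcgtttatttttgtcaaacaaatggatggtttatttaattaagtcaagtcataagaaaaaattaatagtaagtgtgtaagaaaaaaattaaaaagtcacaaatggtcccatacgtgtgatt
NRT3.1 (chr5:20435930-20436179, plus strand): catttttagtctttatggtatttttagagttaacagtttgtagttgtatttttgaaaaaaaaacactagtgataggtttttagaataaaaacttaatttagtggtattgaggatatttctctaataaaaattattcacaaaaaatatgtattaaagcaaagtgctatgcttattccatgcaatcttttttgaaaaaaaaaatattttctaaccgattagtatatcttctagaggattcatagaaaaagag
The LFY core CCANTGG and the nitrate response element core GACNCTT were searched on both strands from 250 bases before to 50 bases after the start. Neither was found in the windows of the 9 genes, so that no base is in capitals. Of all 27443 windows of this length, 3.93% held the LFY core and 8.64% the response element core, which says only that these letters are uncommon in so short a window.

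Levels per length put the 9 genes in nearly one order in all groups. At 24 h with dexamethasone, *NIA2* was at 314 ± 5.14 CPM per kb of exon, *NIA1* at 216 ± 10.5, *NIR1* at 81.4 ± 8.20, *NRT1.1* at 61.1 ± 5.24, *NRT3.1* at 18.8 ± 0.901, *NRT2.1* at 2.91 ± 1.23, *NRT1.5* at 0.573 ± 0.0397 and *NRT2.4* at 0.541 ± 0.332 (SD, n = 2 each). In mock at 24 h, *NIA1* came first, with 566 ± 15.5 CPM per kb, and *NIA2* followed with 558 ± 33.1, and their libraries overlapped. Next came *NIR1* at 114 ± 0.227, *NRT1.1* at 84.7 ± 4.45, *NRT3.1* at 9.68 ± 2.15, *NRT2.1* at 4.67 ± 0.0391, *NRT1.5* at 0.610 ± 0.190 and *NRT2.4* at 0.485 ± 0.107. *NRT1.5* and *NRT2.4* overlapped in both groups at 24 h, and no other neighbours in the order did so in the dexamethasone libraries. At 1 h, *NIA2* was at 789 ± 163 CPM per kb with dexamethasone and 619 ± 52.7 in mock, and it overlapped with *NIA1* in both groups. At 6 h, *NIA2* was at 483 ± 9.78 with dexamethasone and 529 ± 103 in mock, and *NIA1* at 371 with dexamethasone and 345 in mock, without overlap between the genes. *NRT2.2* had 0 reads in each of the 12 libraries. The limit that 3 reads set was 0.162 CPM in the smallest library, and expression of *NRT2.2* was not detectable at this depth among reads that align to 1 place in TAIR10. Whether the L.er explants carry this gene with the sequence of TAIR10 was not tested, so that the lack of reads is not read as silence.

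**Figure D1:**
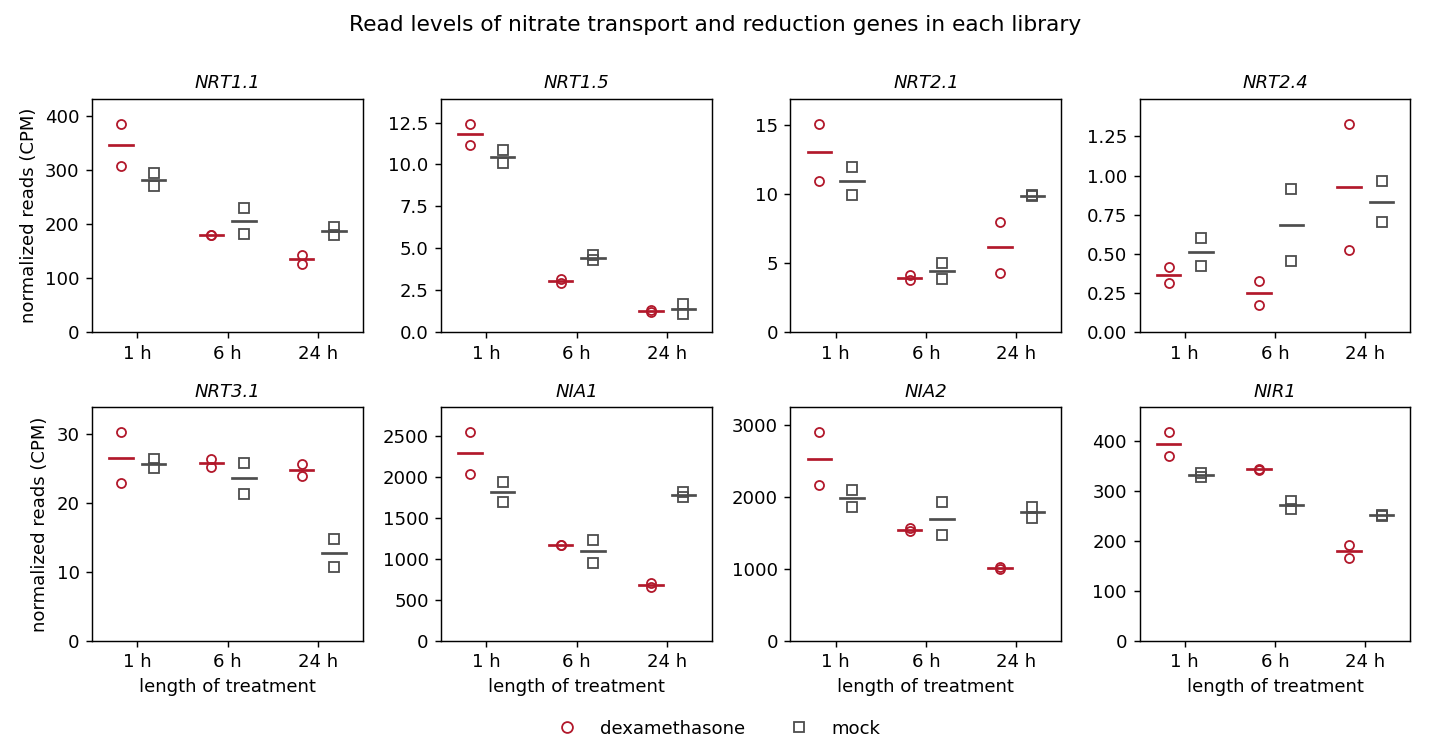
Normalized reads (CPM, linear axes from 0) of the 8 genes with reads, for each length of treatment. Red circles are single dexamethasone libraries, grey squares single mock libraries and lines the mean of 2 libraries. At 24 h the dexamethasone libraries of NIA1, NIA2, NIR1, NRT1.1 and NRT2.1 all lie below mock and those of NRT3.1 above. NRT2.1 was not called, and the share of all genes without overlap between the groups was not counted.

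The comparison of dexamethasone with mock at 24 h asked which genes had changed a day after LFY-GR was activated. Genes were called at an adjusted *p* under 0.01 in edgeR's quasi-likelihood test over all 19288 genes that passed the filter on low counts. Of the 9 genes, 8 were tested, 4 fell, 1 rose and 3 did not pass the test. Over all genes tested, 15.5% were called, 8.76% as lower and 6.77% as higher. The median log2 fold change of the 8 genes was -0.48, beside 0.01 over all genes.

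The enzymes of reduction fell. *NIA1* had 705 and 658 CPM in dexamethasone libraries A and B, against 1821 and 1752 CPM in mock. The dexamethasone libraries were thus both far below mock, and *NIA1* fell by 1.39 ± 0.05 on the log2 scale (SE, adjusted *p* = 3.3e-21), which is 2.61-fold. *NIA2* had 1019 and 996 CPM in dexamethasone libraries, against 1863 and 1713 CPM in mock. It fell by 0.82 ± 0.05 (adjusted *p* = 6.2e-15), again without overlap. *NIR1* had 166 and 191 CPM in dexamethasone libraries, against 250.5 and 251.2 CPM in mock. It fell by 0.48 ± 0.06 (adjusted *p* = 5.6e-08), a smaller change than that of either nitrate reductase gene. Reads on *NIA1* and *NIA2* together took 0.177% and 0.171% of all gene reads with dexamethasone, against 0.364% and 0.352% in mock.

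Both reductase genes code for the same enzyme activity, and their balance differed too. The ratio of *NIA1* to *NIA2* reads per exon length was 0.703 and 0.671 in dexamethasone libraries A and B at 24 h, against 0.993 and 1.04 in mock. At 6 h the groups were in the other order, with 0.760 and 0.776 in dexamethasone libraries and 0.661 and 0.647 in mock. At 1 h they overlapped, with 0.956 and 0.892 in dexamethasone libraries and 0.926 and 0.936 in mock. No test was run on the ratio, which is a description of these libraries.

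**Figure D2:**
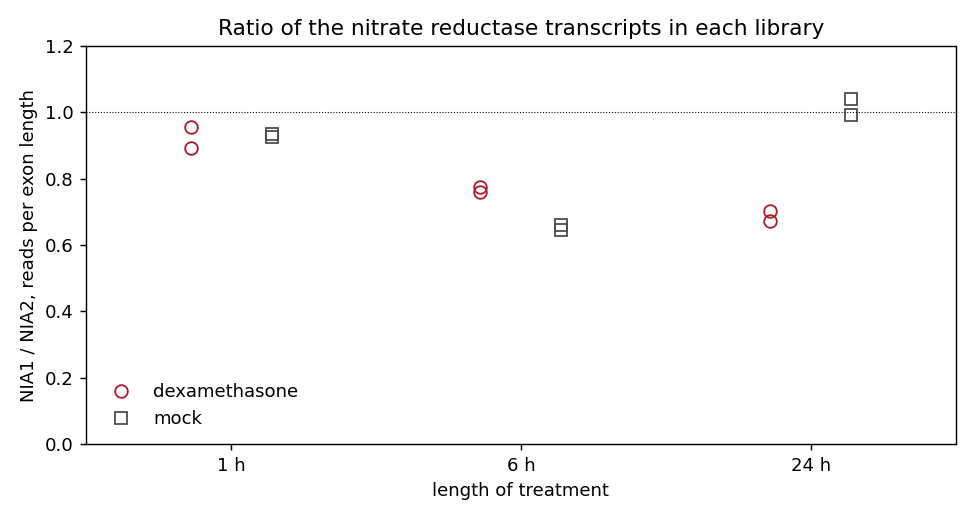
Ratio of NIA1 to NIA2 reads per exon length (y axis, from 0) in each library, by length of treatment, with dexamethasone as red circles and mock as grey squares. The dotted line marks equal levels, and the 24 h dexamethasone libraries lie at 0.703 and 0.671, below mock at 0.993 and 1.04.

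Among the transport genes, the one with the most reads was lower with dexamethasone, and the transcript of the partner protein was higher than in mock. *NRT1.1* had 143 and 126 CPM in dexamethasone libraries A and B at 24 h, against 194 and 179.7 CPM in mock. It fell by 0.47 ± 0.06 (adjusted *p* = 1.8e-07), and when all 12 libraries shared one estimate of the spread it was not called (adjusted *p* = 0.036). *NRT3.1* had 25.6 and 23.9 CPM in dexamethasone libraries, against 14.7 and 10.7 CPM in mock. It was higher in both dexamethasone libraries, by 0.95 ± 0.13 on the log2 scale (adjusted *p* = 3.5e-07), or 1.94-fold. Its dexamethasone mean of 24.7 CPM was near the 25.7 CPM of mock at 1 h, while mock at 24 h averaged 12.7 CPM. *NRT2.1*, whose protein works with that of *NRT3.1*, had 7.98 and 4.30 CPM in dexamethasone libraries, against 9.93 and 9.81 CPM in mock. Its log2 fold change of -0.70 ± 0.20 lay just outside the threshold (adjusted *p* = 0.0104). Without dexamethasone library B the value was -0.30 (adjusted *p* = 0.38) and without dexamethasone library A -1.19 (adjusted *p* = 6e-06), so that 1 library decides it.

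The remaining transporters were near the lower end of what could be measured. *NRT1.5* had 23 and 31 reads in dexamethasone libraries A and B at 24 h, against 27 and 36 in mock, and its log2 fold change was -0.07 ± 0.45 (adjusted *p* = 0.94). *NRT2.4* had 10 and 31 reads in dexamethasone libraries, against 18 and 21 in mock, with a log2 fold change of 0.20 ± 0.55 (adjusted *p* = 0.85). In both genes the groups overlapped, and the standard errors leave room for changes of either sign.

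Dexamethasone was set against mock at 1 and 6 h to ask how early a response could be seen. Replicates varied more in these early fits. Their spread relative to the mean (edgeR's biological coefficient of variation) came to 0.141 in the 1 h fit and 0.096 in the 6 h fit. The 24 h fit had only 0.061. A change of a given size was thus harder to call early, and a lack of calls does not date the response. At 1 h, edgeR called 0 of the 9 genes and 0% of all 20447 genes tested, with 881 genes and none of the 9 at an unadjusted *p* under 0.05. DESeq2 called 53 genes, none of them among the 9. *NIA1* had 2034 and 2547 CPM in dexamethasone libraries A and B, against 1699 and 1938 CPM in mock, and its log2 fold change was 0.32 ± 0.17 (adjusted *p* = 0.95). *NIA2* had 2160 and 2900 CPM in dexamethasone libraries, against 1864 and 2103 CPM in mock, with 0.33 ± 0.18. *NRT1.1*, *NRT1.5* and *NIR1* were likewise higher in both dexamethasone libraries than in mock. Their log2 fold changes were 0.28 ± 0.14, 0.16 ± 0.13 and 0.23 ± 0.11, none of which passed the test. *NRT2.4* was lower in both (-0.51 ± 0.40). The share of all genes without overlap between the groups was not counted. Dexamethasone library B was the higher one in each of the 5 genes that were higher. In this library 17.2% of reads aligned to several places, against 11.7% in dexamethasone library A. Without dexamethasone library A the log2 fold changes of *NRT1.1*, *NIA1* and *NIA2* were 0.43, 0.46 and 0.52. This fit leaves 1 dexamethasone library and takes its spread from the mock libraries alone, so that its calls are not read as responses.

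At 6 h, 0 of the 9 genes and 0.0048% of the 20829 genes tested, which is 1 gene, were called by edgeR. At an unadjusted *p* under 0.05 there were 2479 genes and 3 of the 9, namely *NRT1.5*, *NRT2.4* and *NIR1*, and DESeq2 called 189 genes and none of the 9. *NIR1* had 342.6 and 343.8 CPM in dexamethasone libraries A and B, against 264 and 279 CPM in mock. These groups did not overlap, and the log2 fold change was 0.34 ± 0.07 (adjusted *p* = 0.22). *NRT1.5* had 3.19 and 2.92 CPM in dexamethasone libraries, against 4.29 and 4.58 CPM in mock, with a log2 fold change of -0.54 ± 0.14 (adjusted *p* = 0.28). *NIA1* had 1174 and 1164 CPM in dexamethasone libraries, between the 952 and 1228 CPM of mock, and *NIA2* had 1569 and 1524 CPM, between 1463 and 1928 CPM in mock. Measured in CPM, the dexamethasone libraries lay closer to each other than the mock libraries did in all 8 genes, but as a ratio they did not in *NRT1.5*. The share of all genes for which this holds was not counted, so that it is not read as a trait of these genes. Without mock library A the log2 fold change was -0.060 for *NIA1* and -0.31 for *NIA2*, and without mock library B it was 0.28 and 0.066. Such a fit leaves 1 mock library and takes its spread from the dexamethasone libraries alone, so that its calls are not read as responses. The dexamethasone values of *NRT3.1* were 25.1 and 26.3 CPM, against 21.3 and 25.7 CPM in mock.

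**Figure D3:**
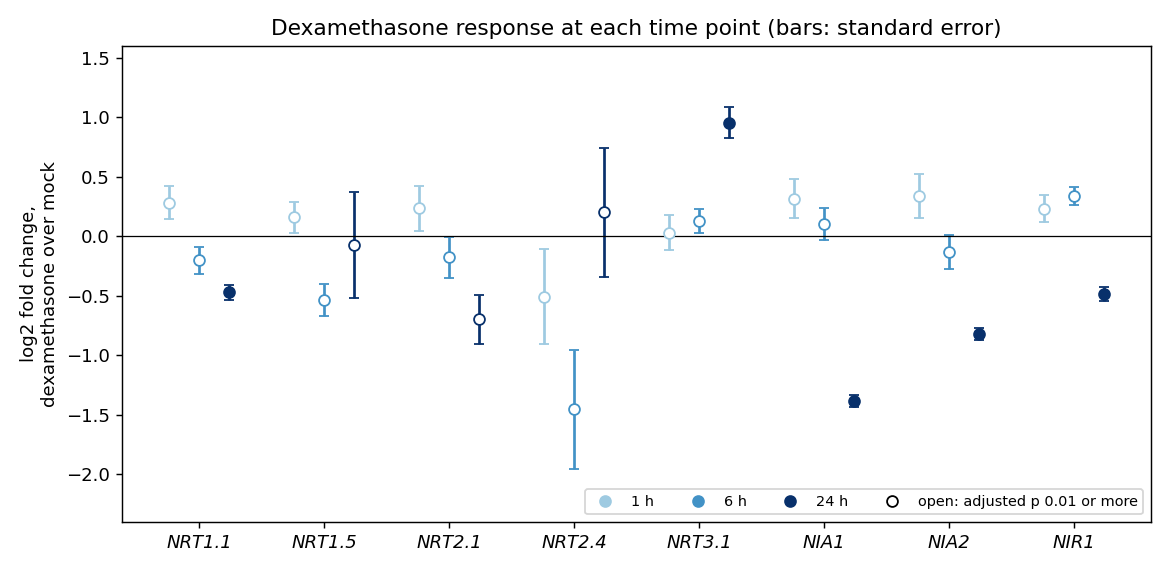
Log2 fold change of dexamethasone over mock (y axis) for 8 genes at 1, 6 and 24 h, with bars of 1 standard error and filled circles at an adjusted p under 0.01. Filled circles appear at 24 h only, below 0 for NRT1.1, NIA1, NIA2 and NIR1 and above 0 for NRT3.1. Replicates varied more in the 1 and 6 h fits, so that the lack of filled circles there does not date the response.

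Whether the response at 24 h differed from the earlier ones was tested as an interaction over all 12 libraries. Against 6 h, 2 of 8 genes tested had a lower response at 24 h and none a higher one, beside 4.43% of 21241 genes called in all, 3% as lower and 1.43% as higher. The response of *NIA1* at 24 h minus that at 6 h was -1.49 ± 0.20 on the log2 scale (adjusted *p* = 0.00077). That of *NIR1*, which was positive at 6 h, had a difference of -0.83 ± 0.12 (adjusted *p* = 0.0017). The differences of *NIA2* (-0.69 ± 0.22) and *NRT3.1* (0.82 ± 0.23) did not pass the test (adjusted *p* = 0.077 and 0.049). Against 1 h, 3 of 8 genes had a lower response at 24 h, beside 4.74% called in all, 2.99% as lower and 1.75% as higher. The differences were -1.72 ± 0.20 for *NIA1*, -1.18 ± 0.22 for *NIA2* and -0.74 ± 0.12 for *NIR1* (adjusted *p* = 0.00032, 0.0063 and 0.0035). *NRT1.1* had a difference of -0.77 ± 0.18 and *NRT3.1* of 0.91 ± 0.23, which did not pass (adjusted *p* = 0.024 and 0.032). The call of *NIA1* held with any 1 library left out, while those of *NIR1* against 6 h and of *NIA2* and *NIR1* against 1 h were lost in 4, 6 and 5 of 8 such fits, with adjusted *p* of up to 0.012, 0.037 and 0.020.

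The time points were also set against each other within mock, since explants had the same age at harvest. These groups differ in the length of the mock treatment and possibly in batch, which cannot be told apart. They are thus not a course over time. *NRT1.5* had 10.1 and 10.8 CPM in mock at 1 h, 4.29 and 4.58 CPM at 6 h and 1.06 and 1.65 CPM at 24 h. In the dexamethasone libraries the order was the same, with 11.2 and 12.4 CPM at 1 h, 3.19 and 2.92 CPM at 6 h and 1.21 and 1.33 CPM at 24 h. The transcript of this xylem loading transporter was thus lowest at 24 h in both treatments. In mock at 24 h it was lower by 2.96 ± 0.19 on the log2 scale than in mock at 1 h (adjusted *p* = 9.8e-07), and this held with any 1 library left out.

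Of the 8 genes tested, 3 were lower in mock at 6 h than in mock at 1 h. Over all genes, 14.6% were called, 9.26% as lower and 5.34% as higher. The 3 genes were *NRT1.5* (-1.24 ± 0.16), *NRT2.1* (-1.31 ± 0.25) and *NIA1* (-0.74 ± 0.14), with adjusted *p* = 0.00025, 0.0033 and 0.0028. Between mock at 24 h and at 1 h, 4 were lower at 24 h, beside 24.5% called in all, 14.3% as lower and 10.2% as higher. These were *NRT1.5*, *NRT3.1* (-1.01 ± 0.17), *NRT1.1* (-0.59 ± 0.13) and *NIR1* (-0.40 ± 0.09), the last 3 with adjusted *p* = 0.00078, 0.0046 and 0.0040. Between mock at 24 h and at 6 h, 2 were lower and 2 higher, beside 15.3% called in all, 8.49% as lower and 6.79% as higher. *NRT1.5* (-1.73 ± 0.20) and *NRT3.1* (-0.88 ± 0.17) were lower, and *NRT2.1* (1.16 ± 0.26) and *NIA1* (0.71 ± 0.14) were higher, with adjusted *p* = 0.00013, 0.0029, 0.0071 and 0.0033. Leaving out 1 library took the count of genes called among the 9 to between 1 and 4 at 6 h against 1 h, and to 1 or 2 in both comparisons of 24 h, where the call of *NRT1.5* remained in each such fit.

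The values of *NRT3.1* and *NIA1* at the 3 time points are given side by side. *NRT3.1* averaged 26.5, 25.7 and 24.7 CPM in the dexamethasone libraries at 1, 6 and 24 h and 25.7, 23.5 and 12.7 CPM in mock, so that its mock libraries at 24 h were the ones that stood apart. *NIA1* averaged 2291, 1169 and 681 CPM with dexamethasone and 1818, 1090 and 1786 CPM in mock, where the 6 h libraries were low. The dexamethasone and mock libraries of 24 h are compared with each other in each case, and the comparisons share their mock samples.

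The wider pathway was described by 4 lists of other genes, which were also chosen with earlier results of these data known. They are read against all genes tested at 24 h, of which 15.5% were called, 8.76% as lower and 6.77% as higher. The median log2 fold change of all genes tested was 0.01. Of 19 other nitrate transporters and channels, 14 were tested, 3 rose and 4 fell, with a median log2 fold change of -0.37. *NRT1.9*, a transporter of the phloem, had 21.0 and 21.9 CPM in dexamethasone libraries A and B, against 40.3 and 39.3 CPM in mock (-0.89 ± 0.10, adjusted *p* = 3.8e-09). Other genes overlap 30.7% of its exons. *SLAH3*, an anion channel that passes nitrate, had 117 and 115 CPM in dexamethasone libraries, against 193 and 196 CPM in mock (-0.75 ± 0.06, adjusted *p* = 9e-13). Its relative *SLAH2* had 61 and 132 reads in dexamethasone libraries, against 29 and 38 in mock, and rose by 1.65 ± 0.33 (adjusted *p* = 0.0002). *CLCb*, of a family of vacuolar anion transporters, had 105 and 92 reads in dexamethasone libraries, against 57 and 53 in mock, and rose by 1.02 ± 0.28 (adjusted *p* = 0.0058), with 20.8% of its exons overlapped by other genes. The remaining gene that rose was *NRT2.6*, with 40 and 62 reads in dexamethasone libraries, against 8 and 11 in mock, which is named here after its values were seen because its mean was under 50 counts.

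Genes for the cofactors and the reductant of both enzymes were next. Of 14 listed and tested, 1 rose and 1 fell, a share near the 15.5% called over all genes, and the median log2 fold change was 0.01. *FD3*, a ferredoxin of non-green tissue, had 175 and 173 CPM in dexamethasone libraries at 24 h, against 218 and 212 CPM in mock, and fell by 0.30 ± 0.06 (adjusted *p* = 6.3e-05). *CNX5*, an enzyme of molybdenum cofactor synthesis, had 65.3 and 71.7 CPM in dexamethasone libraries, against 51.1 and 56.9 CPM in mock, and rose by 0.35 ± 0.08 (adjusted *p* = 0.00065).

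Of 18 genes for ammonium uptake and assimilation, 15 were tested at 24 h, 1 rose and 3 fell, beside 6.77% and 8.76% of all genes, with a median of -0.04. *ASN1*, an asparagine synthetase, had 54.3 and 57.5 CPM in dexamethasone libraries, against 4.18 and 2.80 CPM in mock. This was a rise of 3.99 ± 0.13 on the log2 scale, or 15.9-fold (adjusted *p* = 5.1e-23). *ASN1* also averaged 25.1 CPM with dexamethasone at 6 h and 9.64 CPM in mock, with a log2 fold change of 1.38 ± 0.10 that did not pass the test (adjusted *p* = 0.089). *GLN1;4*, a cytosolic glutamine synthetase, had 119 and 111 CPM in dexamethasone libraries at 24 h, against 268 and 245 CPM in mock, and fell by 1.15 ± 0.06 (adjusted *p* = 1.4e-17). *GDH1*, a glutamate dehydrogenase, fell by 0.58 ± 0.06 and *GLN1;1* by 0.20 ± 0.06 (adjusted *p* = 2.4e-09 and 0.0052). *AMT1;1* could not be read, since other genes overlap 98.4% of its exons.

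Of 26 regulators of the nitrate response, all tested, 3 rose and 11 fell at 24 h, beside 6.77% and 8.76% of all genes, with a median of -0.29. *LBD38*, a repressor of nitrate genes, had 18.5 and 17.2 CPM in dexamethasone libraries, against 9.96 and 8.30 CPM in mock, and rose by 0.96 ± 0.14 (adjusted *p* = 1.4e-06). *HRS1*, a transcription factor that nitrate induces, had 13.3 and 10.1 CPM in dexamethasone libraries, against 18.7 and 20.1 CPM in mock, and fell by 0.73 ± 0.14 (adjusted *p* = 7.7e-05). The gene AT3G25790 fell by 1.28 ± 0.34 and AT1G68670 rose by 0.69 ± 0.11 (adjusted *p* = 0.0042 and 3.1e-06). At 1 and 6 h, where 0% and 0.0048% of all genes were called, none of the genes of the 4 lists was among them.

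**Figure D4:**
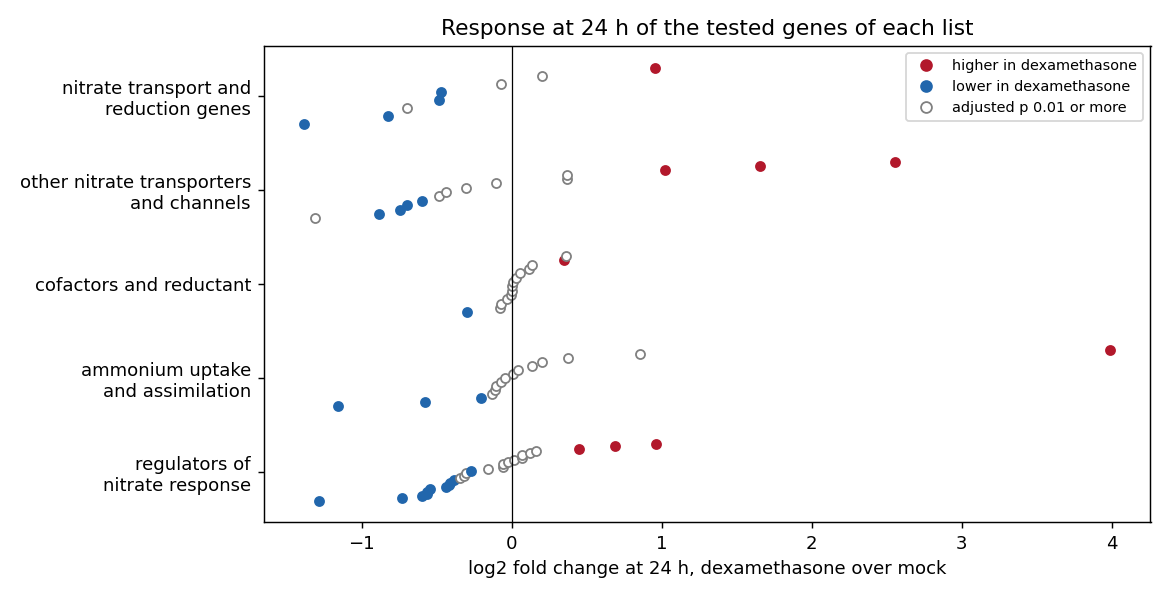
Log2 fold change of dexamethasone over mock at 24 h (x axis) of each tested gene, by list, sorted within a list. Red circles rose, blue circles fell and open circles had an adjusted p of 0.01 or more, and ASN1 lies farthest to the right at 3.99.

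The genes whose course over the 6 groups was most like that of *NIA1* were found by the root mean square distance between group means of log2 CPM, each centred on the gene's own mean, over 17934 genes with 50 counts or more on average. The amino acid permease *AAP2* came first with a distance of 0.057, followed by AT5G43180 with 0.113, AT1G67870 with 0.131, the vacuolar water channel gene *GAMMA-TIP* with 0.141 and AT1G23040 with 0.144. The median distance was 0.617. *NIA2* was at 0.238, rank 52, and *NRT1.1* at 0.297, rank 153, while *NIR1* was at 0.378 and *NRT2.1* at 0.431. *NRT3.1* and *NRT1.5* were farther from *NIA1* than most genes, at 0.757 and 1.00. These distances describe 6 group means that share their libraries.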

How the data were processed

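Single-end reads were trimmed by the authors (Trimmomatic 0.36), aligned to TAIR10 with STAR (2.5.3a in the submitters' processing notes) and the Araport11 annotation, and counted per gene without strand (HTSeq 0.7.2). The deposited values are these raw counts. Antisense and overlapping genes can therefore lose or share reads, and reads with several alignments were not counted. HTSeq's tallies of reads given to no gene were left out. Counts were filtered with filterByExpr, normalized by TMM and tested with edgeR 4.0.16 in R 4.3.3 with limma 3.58.1, by the quasi-likelihood test, over the 4 libraries of a time point, or over all 12 for interactions and for mock at different times, with Benjamini-Hochberg adjustment over all genes tested and a threshold of 0.01. Standard errors come from the test statistic. The test draws the spread of each gene toward a trend over all genes tested. With 2 libraries per group, *p*-values thus rest in large part on the spread of other genes in these libraries.

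The 9 genes and the lists were chosen with earlier results of these data known. All 9 are named. Of each list, at most the 4 genes with the largest change at 24 h are named, among those called with a mean of at least 50 counts. The 5 genes nearest *NIA1* used a prior count of 2. Alternatives were DESeq2 1.42.0, RLE normalization, no filter, at least 10 counts in each library, the replicate letter as a block, other sets of libraries, each library left out and a threshold of 0.05. DESeq2 was planned with its default filtering. It was first run with that filtering tuned to 0.01 by oversight, and the default was restored with the published gene counts known, so both are given. The tests of dexamethasone against mock were checked on simulated counts with planted changes, for the sign of the calls and for recovery. No limit was set there on false calls, and the interactions and the comparisons within mock were not checked in this way. CPM per kb used exon lengths of TAIR10.1. Of the other nitrate transporters, 1 had no entry in the count files and was not analysed here.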

Additional observations from a re-analysis of the deposited data

Results flagged for a closer look

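For 3 genes the response to dexamethasone differed between time points by an interaction test over all 12 libraries (edgeR, adjusted *p* under 0.01). The response of *NIA1* at 24 h minus that at 6 h was -1.49 on the log2 scale (adjusted *p* = 0.00077), and minus that at 1 h it was -1.72 (adjusted *p* = 0.00032). For *NIR1* these differences were -0.83 and -0.74 (adjusted *p* = 0.0017 and 0.0035). The response of *NIA2* at 24 h minus that at 1 h was -1.18 (adjusted *p* = 0.0063). The direction was the same in all alternatives tried for these 5 differences, while the call was kept in all 15 alternatives for *NIA1* only.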

How the results depend on the processing

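The 5 calls of the 24 h comparison kept their direction in all 11 alternatives, and their calls too, except that of *NRT1.1* with all 12 libraries in the fit. *NRT2.1* was called at 24 h in 4 of 11, with an adjusted *p* between 6e-06 and 0.38. Over the 8 genes tested and 8 comparisons, alternatives other than a left out library reversed 0 values, lost 3 calls and gained 16. Leaving out a library reversed 15 values, and calls were both lost and gained. A group then holds 1 library, which is assumed to vary like the others. At 24 h the total of genes called was 2995, and 1546 with all 12 libraries in the fit. The cause of the other differences was not tested.

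At 1 h, where 0 genes were called, DESeq2 called 53 with either filtering, no low-count filter 7, the replicate block 413, all 12 libraries 24 and an adjusted *p* under 0.05 gave 1, while leaving out a library gave 1 to 2019 genes and 0 to 3 of the 9. At 6 h the 1 gene called stood beside 189 with DESeq2 under either filtering, 2 without filter, 84 with the replicate block and 24 with all 12 libraries, and leaving out a library gave 1 to 8232 genes and 0 to 5 of the 9.

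Of the response at 24 h minus that at 6 h, 941 genes were called, 1639 with DESeq2, 1654 with its filtering tuned to 0.01, 1664 without filter, 1968 under 0.05 and 445 to 836 with a library left out. Of the 9, 2 were called, 4 without filter and 1 to 2 with a library left out. Against 1 h, 1006 genes were called, 1698 with DESeq2, 1707 with tuned filtering, 1832 without filter, 637 from the libraries of the comparison alone, 2029 under 0.05 and 500 to 1429 with a library left out. Of the 9, 3 were called, 5 with DESeq2 under either filtering, without filter and under 0.05, and 1 to 4 with a library left out.

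In mock at 6 h against 1 h, 3102 genes were called, 1504 from the libraries of the comparison alone, 5395 under 0.05 and 1476 to 2054 with a library left out, and of the 9, 3 were called, 5 with DESeq2 under either filtering and under 0.05, and 1 to 4 with a library left out. For mock at 24 h against 1 h, 5197 genes were called, 8084 under 0.05 and 2878 to 3500 with a library left out, and of the 9, 4 and 1 to 2. Against 6 h, 3247 genes were called, 5921 under 0.05 and 1329 to 2238 with a library left out, and of the 9, 4 and 1 to 2.

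With a library left out, log2 fold changes that changed sign ranged as follows. At 1 h *NRT3.1* ranged between -0.17 and 0.21. At 6 h *NRT2.1* ranged between -0.35 and 0.025, *NIA1* between -0.060 and 0.28 and *NIA2* between -0.31 and 0.066. At 24 h *NRT1.5* ranged between -0.37 and 0.27 and *NRT2.4* between -0.65 and 0.69. For the response at 24 h minus that at 1 h, *NRT1.5* ranged between -0.54 and 0.10 and *NRT2.4* between -0.17 and 1.18. In mock at 6 h against 1 h, *NRT2.4* ranged between -0.17 and 0.85 and *NRT3.1* between -0.26 and 0.015. In mock at 24 h against 1 h *NIA1* ranged between -0.12 and 0.067, and against 6 h *NRT1.1* between -0.33 and 0.030, *NRT2.4* between -0.17 and 0.87 and *NIA2* between -0.14 and 0.28. None of these was called in the main fit. At 6 h *NIA1* at 0.28 and *NIA2* at -0.31 were called, each in a fit that left 1 mock library.

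Libraries share only a replicate letter. The A minus B differences of dexamethasone and mock correlated at 0.51, -0.05 and 0.02 across 21241 genes at 1, 6 and 24 h. With the replicate block, 3447 genes were called at 24 h and *NRT2.1* was called as well (adjusted *p* = 0.0024). At the depth of 24 h, *NRT1.5* and *NRT2.4* had too few reads for changes of the size reported for *NIR1* to be seen.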
